A study of Homo sapiens with 8 samples.

Results

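Loss of KDM1A was examined across all genes in ES2 cells that had received vehicle, by setting 2 libraries of KDM1A knockout cells against 2 libraries of control cells. These 4 were the libraries whose titles name the knockout or the control without LY500307, out of 8 libraries in the series. ES2 is an established human ovarian cancer line, grown in McCoy's 5a medium with serum. The other 4 libraries came from the same knockout and control cells after 48 h with 5 µM LY500307, which activates oestrogen receptor beta, and were used only for a side comparison. Vehicle lasted 48 h, and every library was read from one end. The labels call the molecule total RNA but name both an mRNA kit and a guide for total RNA, so whether poly(A) RNA was selected is not settled. The sources used here do not give the edited position of KDM1A, the guide, whether the knockout cells were 1 clone or a pool, or what the control cells carried, so loss of KDM1A and any other difference between the 2 cell populations cannot be told apart. Nothing says that the duplicates were separate cultures, and p-values then measure only the spread between these libraries, which may be technical.

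KDM1A, also called LSD1, is a flavin-dependent enzyme that takes mono- and dimethyl marks off histone H3 at lysine 4, marks found at enhancers and promoters. It works mostly inside the CoREST complex, with the scaffold RCOR1 and the deacetylases HDAC1 and HDAC2, and is brought to genes by repressors such as REST and the SNAIL factors. The complex is best known for keeping lineage genes silent, and KDM1A has also been found at active genes and with nuclear receptors.

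Library totals were 24849008 and 30131097 counts for knockout cells and 24422873 and 24348937 counts for control cells, with 15233 and 15433 genes counted in knockout libraries and 15253 and 15471 in control libraries. Levels are given as CPM, the count over the TMM-scaled library total, one value per library with replicate 1 first. CPM are not divided by gene length, so they compare libraries and not genes. Reads outside annotated genes were 12.7% and 12.8% of uniquely aligned reads in knockout libraries and 11.5% and 11.7% in control libraries, and the part of this difference in the results below was not tested. One library stood apart in 1 respect. The 32 genes of a list of epithelial junction and barrier genes other than KRT7, KRT8 and KRT18 summed to 18.1 and 19.3 CPM, here before TMM scaling, in knockout libraries, against 16.3 and 33.6 in control libraries, and to between 18.6 and 20.5 in the 4 LY500307 libraries. Control replicate 2 was thus high for these genes, all of them at low levels.

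The targeted transcript was lower in both knockout libraries. KDM1A (chromosome 1, 23345936 to 23410182, hg19) had 74.1 and 76.2 CPM in knockout libraries, against 214 and 214 CPM in control libraries, or 35.1% of control. The log2 fold change of knockout over control was -1.51 (SE 0.050), with an adjusted p of 2.86e-26 in the two-sided quasi-likelihood F test of edgeR, adjusted by Benjamini and Hochberg's method over 13030 genes. The counts cover the whole gene, do not show the edited stretch and say nothing of the protein.

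Cell type markers were read beside this. Of 15 markers of ovarian carcinoma and Müllerian epithelium, 8 had enough counts to be tested. Of these 3 were higher and 3 lower, 2 and 3 at least 2-fold, with a median of -0.77. The sign of that median rested on control replicate 2, without which it was 0.074. The keratin KRT7 had 351 and 362 CPM in knockout libraries, against 246 and 255 CPM in control libraries, and KRT18, another simple epithelial keratin, had 159 and 156 CPM in knockout libraries, against 325 and 312 CPM in control libraries. PAX8, a transcription factor of Müllerian epithelium, had 5.63 and 5.93 CPM in knockout libraries, against 1.62 and 2.25 CPM in control libraries, and WT1, a factor of serous carcinomas, had 5.28 and 4.95 CPM in knockout libraries, against 1.87 and 1.54 CPM in control libraries. MUC16, MSLN, SOX17, EMX2, FOLR1 and NAPSA had no more than 7 counts in any vehicle library, so several defining epithelial markers were at or near 0 in both populations. Of 12 haematopoietic markers only FCER1G was tested, and the list summed to 1.33 and 1.86 unscaled CPM in knockout libraries, against 0.410 and 0.698 in control libraries, with CD3E, CD53, LAPTM5 and TYROBP at 0 counts in all 4. Of 10 endothelial markers, PECAM1, VWF, CLDN5 and EMCN had between 0 and 4 counts, while TIE1, a receptor kinase of vessels, had 308 and 328 CPM in knockout libraries, against 213 and 225 CPM in control libraries, and CDH5, the vascular cadherin, had 30.0 and 30.0 CPM in knockout libraries, against 101 and 98.6 CPM in control libraries. The fibroblast and mesothelial list summed to 259 and 262 unscaled CPM in knockout libraries and to 1220 and 1275 in control libraries, most of it COL1A1, with DCN at 0 counts. Of its 12 markers 5 were tested, 2 higher and 3 lower, each by at least 2-fold. Their log2 fold changes lay between -2.75 and 4.95. The part of these markers in the results was not tested, and in bulk RNA fewer cells of a type and less RNA per cell cannot be told apart.

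The response was broad and mostly shallow. Of 13030 genes with enough counts, 8671 (66.5%) passed an adjusted p under 0.05 by edgeR's test, hereafter called: 4257 (32.7%) were higher and 4414 (33.9%) lower in knockout cells. A change of at least 2-fold was reached by 782 called genes (6.0%) upward and 986 (7.57%) downward. Counts called in the gene groups below are to be set beside these shares of all genes. Both knockout libraries lay on one side of both control libraries for 10697 genes (82.1%). The median size of the change was 0.33 on the log2 scale over all genes tested and 0.48 over called genes, and 90% of genes changed by less than 1.22. Libraries of a group differed little, with a biological coefficient of variation of 3.69%. The tail was longer downward than upward: 415 genes fell and 212 rose at least 4-fold, and 102 fell and 19 rose at least 64-fold. There were 98 genes with under 0.1 CPM in knockout cells and at least 1 CPM in control cells, and 22 genes with the opposite pattern. Such genes passed the filter on low counts through the group where they were higher. Counts of large changes in the gene groups below can hold such members. Among 2758 genes of at least 100 CPM, 2166 were called, but 46 rose and 94 fell at least 2-fold.

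**Figure D1:**
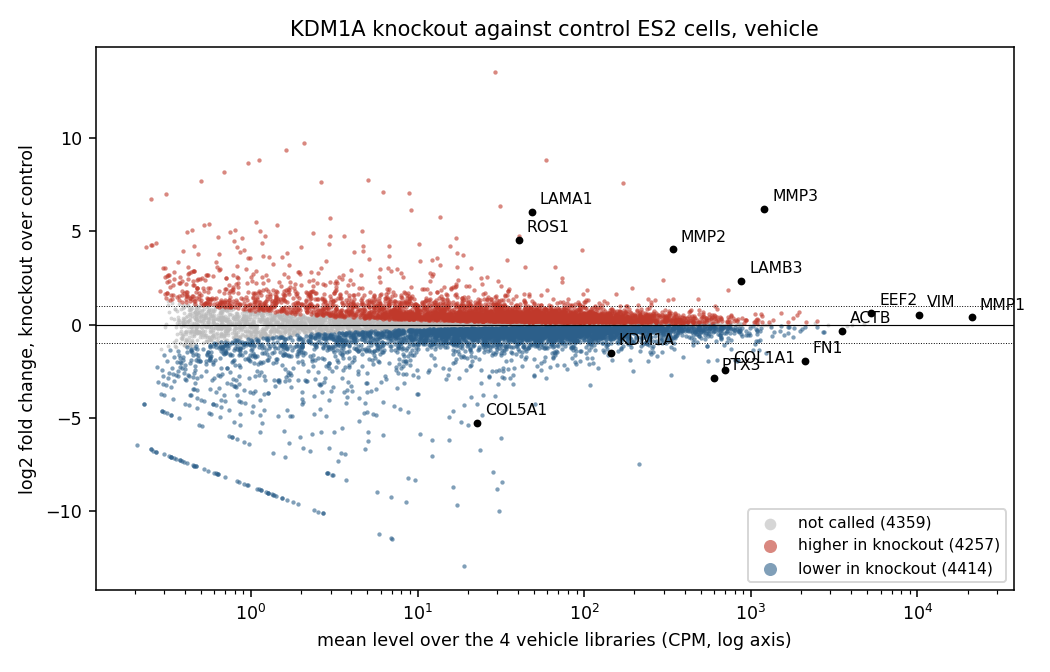
Mean level over the 4 vehicle libraries (CPM, log axis) against the log2 fold change of knockout over control for 13030 genes, with called genes in colour (4257 higher, 4414 lower) and dotted lines at 2-fold. Most called genes lie between the dotted lines, MMP3 and MMP2 stand high among genes with many counts, and the slanting rows at the left edge are genes without a count in 1 group, whose fitted fold depends on the prior count.

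Genes of some chromosome arms shared a direction. Of 41 arms with at least 20 tested genes, 6 had a median log2 fold change below -0.25 and 6 a median above 0.25. On 16p, 237 of 276 genes were lower in knockout cells and 3 higher, with a median of -0.65. On 5p 82 of 97 were lower and 5 higher (median -0.77), and on 18p 41 of 46 were lower and 3 higher (median -0.92). 13q, 8q and 15q had medians of -0.38, -0.35 and -0.26. Upward, 1p, 14q, 19p, 3p, 10p and 2q had medians between 0.29 and 0.33, and on 1p 432 of 691 genes were higher and 84 lower. The 6 upward arms held 1555 of the 4257 genes called higher and the 6 downward arms 895 of the 4414 called lower. Off these 12 arms, 62.5% of 9242 genes were still called, 2550 higher and 3229 lower, and 479 (5.18%) rose and 682 (7.38%) fell at least 2-fold. The 41 arms held 12364 of the tested genes, and genes placed on none of them were counted as off the 12 arms, here and below. Under LY500307 the medians of 16p, 5p and 18p were -0.65, -0.79 and -0.92. The count without the 12 arms is given beside the full one for some gene groups, not for all. Those counts are to be set beside 27.6% higher and 34.9% lower among all genes off the 12 arms. The arms, the limit of 0.25 and these counts were chosen after values were seen, and the part of arm position in any group was not tested.

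**Figure D2:**
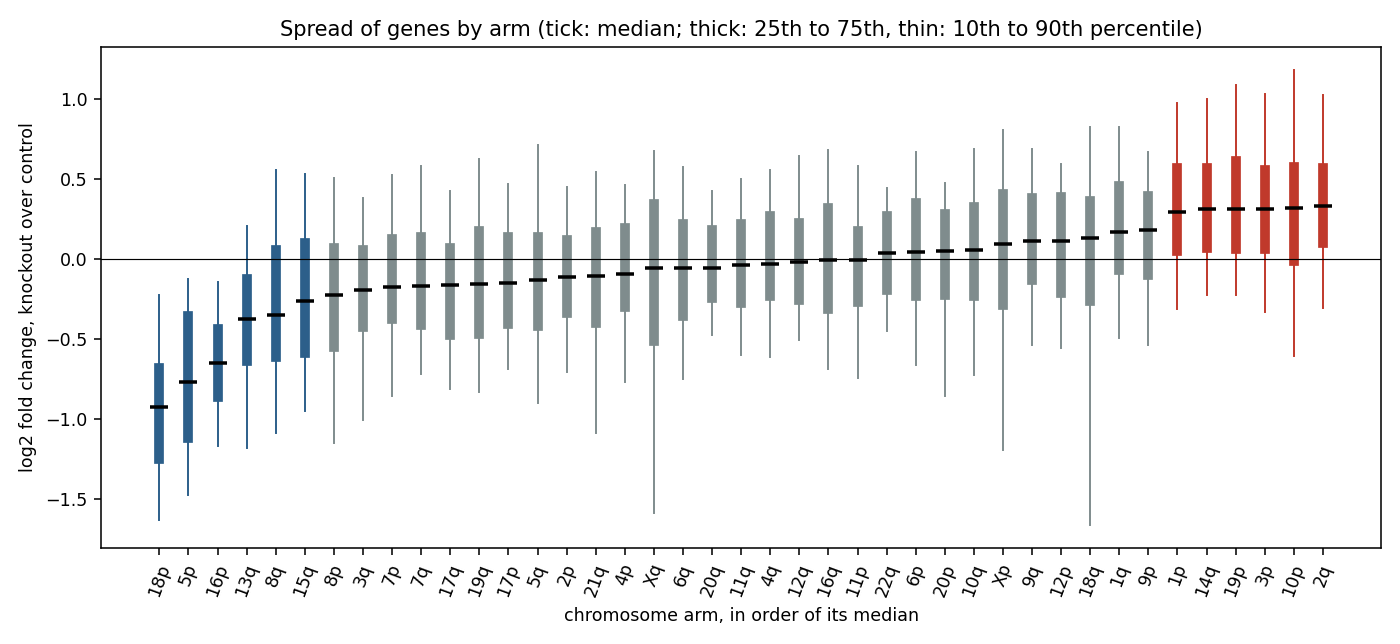
Spread of log2 fold changes of knockout over control by chromosome arm, in order of the arm's median (tick: median, thick bar: 25th to 75th percentile, thin bar: 10th to 90th percentile of tested genes). Arms 18p, 5p and 16p lie lowest with medians of -0.92, -0.77 and -0.65, and 2q highest with 0.33.

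In absolute reads, the largest shifts came from genes of high level. Called genes gained 102952 CPM in all in knockout cells, while genes called lower decreased by 129286 CPM in all, and 10 genes made up 18.0% of the gain. MMP1, interstitial collagenase, had 24331 and 23844 CPM in knockout libraries, against 18695 and 18308 CPM in control libraries, a change of 0.38 on the log2 scale. MMP3, the stromelysin protease, had 2373 and 2387 CPM in knockout libraries, against 30.1 and 34.1 CPM in control libraries, and MMP2, gelatinase A, had 639.7 and 639 CPM in knockout libraries, against 37.6 and 40.2 CPM in control libraries; knockout and control libraries of both genes were far apart, with log2 fold changes of 6.21 (SE 0.052) and 4.04 (SE 0.051). LAMB3, a chain of the epithelial laminin 332, had 1437 and 1504 CPM in knockout libraries, against 282 and 288 CPM in control libraries. SERINC2, a membrane protein of the serine incorporator family, had 1085 and 1202 CPM in knockout libraries, against 307 and 320.4 CPM in control libraries, and SERPINB2, an inhibitor of plasminogen activators, had 1824 and 1835 CPM in knockout libraries, against 1214 and 1203 CPM in control libraries. VIM (vimentin), FLNA (filamin A), the elongation factor EEF2 and the ribosomal protein RPS6 rose by between 0.52 and 0.66 on the log2 scale, small folds on many reads.

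Losses were spread over more genes, and the 10 largest made up 8.65% of all CPM lost. FN1, fibronectin, had 865 and 879 CPM in knockout libraries, against 3386 and 3283 CPM in control libraries, a log2 fold change of -1.93 (SE 0.038). COL1A1, a chain of type I collagen, had 214 and 219.6 CPM in knockout libraries, against 1163 and 1219.8 CPM in control libraries, and PTX3, a secreted pentraxin that binds complement and matrix, had 149 and 143 CPM in knockout libraries, against 1090.3 and 1017 CPM in control libraries. CAV1, the coat protein of caveolae, had 632 and 629 CPM in knockout libraries, against 1847 and 1799 CPM in control libraries, and ANXA2, a membrane-binding annexin that is a surface receptor for plasminogen, had 351 and 362 CPM in knockout libraries, against 1299 and 1333 CPM in control libraries. PLAT, tissue plasminogen activator, had 336 and 336 CPM in knockout libraries, against 1273 and 1284 CPM in control libraries. CTGF, a matricellular growth factor, had 573 and 574 CPM in knockout libraries, against 1518 and 1476 CPM in control libraries, and CPA4, a carboxypeptidase, had 326 and 348 CPM in knockout libraries, against 1303 and 1337 CPM in control libraries. ACTB, beta-actin, had 2968 and 3259 CPM in knockout libraries, against 4007 and 3915 CPM in control libraries, a log2 fold change of -0.35. In none of these 19 genes did knockout and control libraries overlap. The same held for 82.1% of all genes, and the 19 were picked among called genes.

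**Figure D3:**
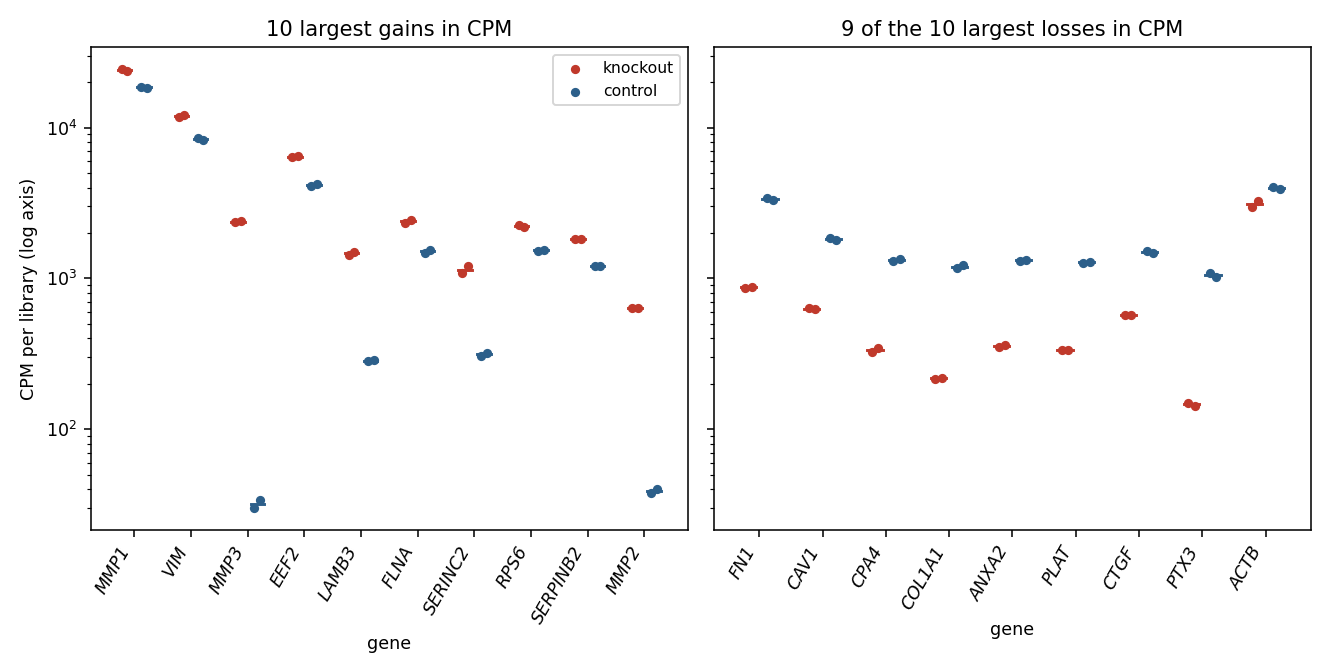
CPM in each vehicle library (log axis) for the 10 genes with the largest gain and 9 of the 10 with the largest loss in mean CPM among called genes, with knockout libraries in red to the left of control libraries in blue and a bar at each mean. Libraries of a group lie almost on each other, and MMP3 and MMP2 show the widest gaps among the gains and PTX3 and COL1A1 among the losses.

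Promoters of 3 of the genes that shift many reads are shown because letters of known factor motifs fall close to the start of transcription. Each is the stretch from 250 bases before to 50 bases after the start given by RefSeq, build GRCh38.p14, read 5′ to 3′ along the gene's strand. Capitals mark TGANTCA (AP-1) and TATAAA in SERPINB2, GGAATG (the letters of a TEAD site) in ANKRD1, and GGAATG and TATAAA in CTGF. Both strands were searched. TGANTCA was marked only in SERPINB2, and GGAATG only in ANKRD1 and CTGF. The ANKRD1 window also holds TGATTCA, a match to TGANTCA left in small letters. TATAAA is not among the letters of the ANKRD1 window. SERPINB2 lies at chr18:63887455-63887754 on the plus strand, ANKRD1 at chr10:90921038-90921337 and CTGF at chr6:131951323-131951622, both on the minus strand.
SERPINB2: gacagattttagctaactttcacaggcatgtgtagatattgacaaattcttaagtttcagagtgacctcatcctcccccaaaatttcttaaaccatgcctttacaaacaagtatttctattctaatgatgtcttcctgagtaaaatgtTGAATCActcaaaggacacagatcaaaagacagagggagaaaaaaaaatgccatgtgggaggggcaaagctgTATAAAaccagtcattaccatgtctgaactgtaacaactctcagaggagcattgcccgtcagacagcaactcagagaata
ANKRD1: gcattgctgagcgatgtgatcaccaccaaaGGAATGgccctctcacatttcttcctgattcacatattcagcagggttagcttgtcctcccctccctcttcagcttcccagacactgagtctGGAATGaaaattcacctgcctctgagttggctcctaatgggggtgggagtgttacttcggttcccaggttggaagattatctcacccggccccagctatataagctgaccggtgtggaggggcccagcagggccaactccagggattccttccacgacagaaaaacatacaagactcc
CTGF: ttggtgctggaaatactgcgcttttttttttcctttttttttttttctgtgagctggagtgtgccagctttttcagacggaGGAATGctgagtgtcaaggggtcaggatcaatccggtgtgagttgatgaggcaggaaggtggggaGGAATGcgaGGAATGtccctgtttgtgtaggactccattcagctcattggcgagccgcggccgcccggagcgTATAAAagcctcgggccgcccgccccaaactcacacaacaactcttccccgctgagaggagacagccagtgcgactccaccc
ANKRD1, a nuclear ankyrin protein of stressed muscle and epithelium, had 2.82 and 1.93 CPM in knockout libraries, against 425 and 421 CPM in control libraries, lower in both knockout libraries. The matches are letters only, and a factor's binding was not measured.

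Over classes of genes, promoters of the strongly changed genes more often held few CG pairs. RefSeq gave a promoter for 10177 of the 13030 tested genes. The median count of CG pairs in the 300 bases was 18.5 for 572 genes at least 2-fold higher, 25 for 692 genes at least 2-fold lower, 27 for called genes under 2-fold and 26 for genes not called. Fewer than 5 CG pairs were found in 17.1%, 10.8%, 3.71% and 5.22% of these classes, and in 5.44% of all tested genes. TATAAA stood in 12.1% of promoters of the genes at least 2-fold higher and 8.24% of those at least 2-fold lower, against 5.44% of tested genes and 11.9% of all 27305 promoters. TGANTCA stood in 7.34% and 6.94%, against 4.57% of tested genes and 7.76% of all promoters. GGAATG was in 10.7% and 14.02% against 10.8% of tested and 14.1% of all, GGGCGG (SP1) in 57.7% and 66.9% against 70.1% and 44.6%, the interferon response element in 5.07% and 3.90% against 2.89% and 3.65%, and the NF-kB motif in 2.10% and 1.16% against 1.47% and 1.63%. These shares describe the classes and were not tested.

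Among the clustered protocadherins the tested beta genes shared a direction and the gamma genes did not. Clustered protocadherins are neuronal adhesion proteins whose alpha, beta and gamma gene clusters lie side by side on 5q31. Each gene has its own promoter, of which a cell normally uses a few. All 12 PCDHB genes with enough counts, of 19 listed, were higher in knockout cells, 11 of them at least 2-fold, with a median of 1.94. Of all genes 32.7% were higher and 6.0% were at least 2-fold higher. Several of the 12, PCDHB8 and PCDHB10 among them, passed the filter on low counts through the knockout libraries. The count of 12 therefore describes the members with counts and supports nothing. The 19 PCDHB genes together summed to 33.6 and 35.7 CPM in knockout libraries, against 9.72 and 8.78 CPM in control libraries, with no overlap. PCDHB16 had 7.54 and 8.30 CPM in knockout libraries, against 1.54 and 0.957 CPM in control libraries, PCDHB2 had 5.31 and 4.62 CPM in knockout libraries, against 1.04 and 0.957 CPM in control libraries and PCDHB5 had 4.16 and 6 CPM in knockout libraries, against 1.33 and 1.497 CPM in control libraries. The single tested PCDHA gene, PCDHA6, had 1.11 and 1.31 CPM in knockout libraries, against 0.0831 and 0.333 CPM in control libraries. It too passed the filter through the knockout libraries. Of 13 tested PCDHG genes, 1 was higher and 6 were lower, all 6 at least 2-fold. Some of the 6 passed the filter on low counts through the control libraries. PCDHGA1, the first of that cluster, was the one that rose (3.05 and 2.30 CPM in knockout cells and 0.664 and 0.790 CPM in control cells), and the genes that fell lay further along, among others that were not called: PCDHGC3 had 20.6 and 22.95 CPM in knockout libraries, against 50.4 and 47.7 CPM in control libraries, PCDHGA11 had 6.19 and 6.69 CPM in knockout libraries, against 13.5 and 13.1 CPM in control libraries and PCDHGA10 had 0.873 and 0.689 CPM in knockout libraries, against 3.65 and 3.04 CPM in control libraries. Under LY500307 10 of the 12 PCDHB genes were called higher and 0 lower, and none of the 12 differed between treatments by the interaction test. PCDHB genes are near copies of each other and gamma genes share their last exons, so the counts of single members are uncertain while the sum of a cluster is less so.

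Promoters of the PCDHB genes share a core that is shown here for members that rose and for 3 that had too few counts to be tested. The letters GGTGGCGCT, in capitals, stood in 13 of the 14 PCDHB promoters in the RefSeq table (92.9%), in 0 of 13 PCDHA, in 0 of 20 PCDHG and in 0.524% of all 27305 promoters of the same length, both strands searched. The letters were chosen after the family's values and promoters were seen. The windows run from 15 bases before to 15 after the match, all on chromosome 5, plus strand, GRCh38.p14.
PCDHB2, chr5:141094540-141094578: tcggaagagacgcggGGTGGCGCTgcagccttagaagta
PCDHB3, chr5:141100389-141100427: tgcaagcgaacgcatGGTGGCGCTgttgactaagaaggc
PCDHB4, chr5:141121719-141121757: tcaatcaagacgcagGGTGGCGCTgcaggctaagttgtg
PCDHB5, chr5:141135175-141135213: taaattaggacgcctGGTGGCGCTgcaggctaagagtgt
PCDHB7, chr5:141172562-141172600: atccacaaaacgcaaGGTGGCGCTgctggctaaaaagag
PCDHB8, chr5:141177773-141177811: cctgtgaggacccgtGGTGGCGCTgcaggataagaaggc
PCDHB10, chr5:141192295-141192333: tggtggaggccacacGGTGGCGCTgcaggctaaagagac
PCDHB13, chr5:141213861-141213899: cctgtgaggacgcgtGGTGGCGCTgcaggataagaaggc
PCDHB14, chr5:141223259-141223297: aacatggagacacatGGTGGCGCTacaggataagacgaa
PCDHB15, chr5:141245310-141245348: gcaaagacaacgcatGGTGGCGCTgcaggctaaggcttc
PCDHB16, chr5:141182306-141182344: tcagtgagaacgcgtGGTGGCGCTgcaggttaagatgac
PCDHB1, whose promoter lacks these letters, had too few counts to be tested. So had PCDHB3, PCDHB4 and PCDHB7, which carry the letters; PCDHB7 had 0.198 and 0.361 CPM in knockout libraries, against 0.748 and 0.291 CPM in control libraries, which overlap. Among the tested members shown the log2 fold change lay between 0.98 in PCDHB14 and 2.67 in PCDHB10. The edgeR call of PCDHB14 was lost without control replicate 2 (0.68, adjusted p 0.121) and without knockout replicate 1 (0.96, adjusted p 0.0858) or 2 (1.00, adjusted p 0.0821).

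Protocadherins outside the clusters did not share a direction. PCDH15, a protein of hair cell tip links, had 37.4 and 36.9 CPM in knockout libraries, against 4.07 and 4.91 CPM in control libraries, PCDH9 had 15.3 and 14 CPM in knockout libraries, against 3.82 and 3.33 CPM in control libraries, and PCDH7 had 0.555 and 0.590 CPM in knockout libraries, against 4.86 and 4.99 CPM in control libraries. Of 23 cadherins and catenins, 4 (17.4%) were higher and 11 (47.8%) lower, against 32.7% and 33.9% of all genes. CDH18 had 21.7 and 21.4 CPM in knockout libraries, against 6.15 and 5.95 CPM in control libraries, while the desmosomal cadherin DSG2 had 1.55 and 1.246 CPM in knockout libraries, against 18.2 and 18.8 CPM in control libraries and the planar polarity cadherin DCHS1 had 1.03 and 1.74 CPM in knockout libraries, against 17.3 and 20.3 CPM in control libraries. CTNNB1, beta-catenin, was not called, with 483 and 479 CPM in knockout cells and 466 and 474 CPM in control cells.

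Zinc finger genes, a second clustered family, were higher more often than lower. Most carry a KRAB domain, which recruits heterochromatin proteins to repeats, and they crowd on chromosome 19. Of 434 tested genes named ZNF and a number, 189 (43.5%) were higher and 96 (22.1%) lower, 52 and 26 at least 2-fold, with a median of 0.16 against -0.0037 over all genes. Of these, 139 lay on the 12 shifted arms, and off them 116 of 295 were higher and 59 lower, 27 and 14 at least 2-fold, with a median of 0.087. On chromosome 19 93 of 192 were higher and 34 lower (median 0.31), and on other chromosomes 94 of 237 were higher and 61 lower (median 0.049). Chromosome 19 also had the arm pattern described above, so neighbours are given beside them. On 19p the ZNF genes had a median of 0.63 and the 325 other genes 0.28, and on 19q the ZNF genes had 0.087 and the 316 other genes -0.28. In the window of 36 to 39 Mb on 19q, 16 of 19 ZNF genes were higher and 1 lower, with a median of 0.98, while 3 of their 34 neighbours were higher and 18 lower, with a median of -0.31. In the windows of 54 to 57 Mb and 42 to 45 Mb, by contrast, 0 of 11 and 4 of 22 ZNF genes were higher and 5 and 3 lower. ZNF585B had 7.06 and 6.82 CPM in knockout libraries, against 0.332 and 0.166 CPM in control libraries, ZNF43 had 8.53 and 7.05 CPM in knockout libraries, against 0.457 and 0.582 CPM in control libraries and ZNF737 had 6.23 and 5.48 CPM in knockout libraries, against 0.0831 and 0.125 CPM in control libraries. Not all rose: ZNF488 had 0.317 and 0.328 CPM in knockout libraries, against 4.82 and 6.24 CPM in control libraries, and ZNF681 had 1 count over the knockout libraries and 294 over the control libraries, a ratio of control over knockout of 340 (95% counting interval 60.6 to 13489). Zinc finger genes are paralogs with shared stretches, so single members of low level are uncertain.

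**Figure D4:**
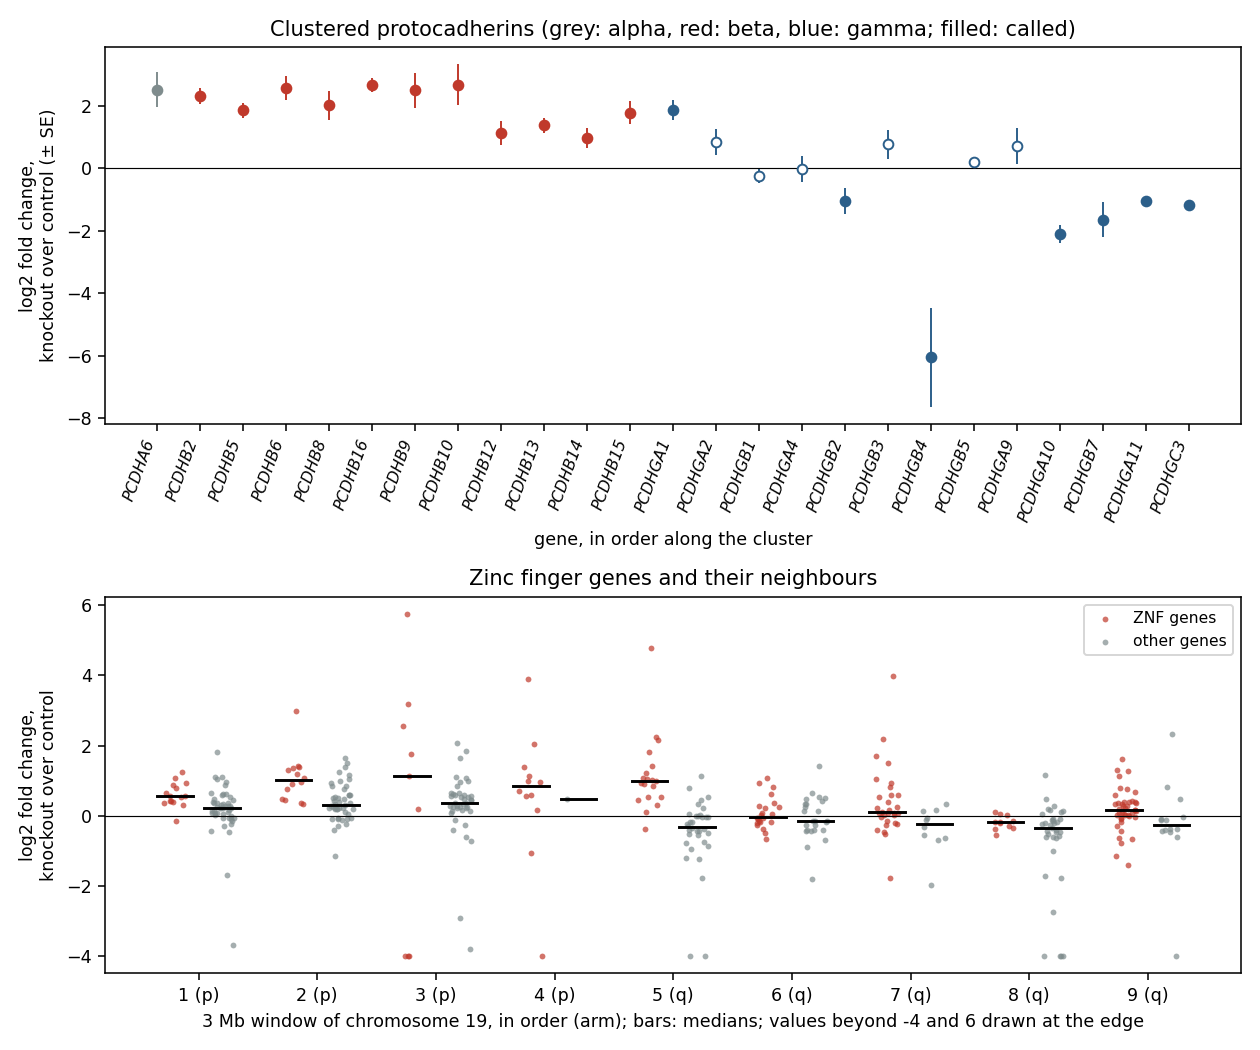
Top, log2 fold change of knockout over control (± SE of the fit) for the tested protocadherins of the 3 clusters that have a position, in order along the chromosome, filled where called: all beta genes lie above 0, and 6 gamma genes are called below 0. Bottom, log2 fold changes of ZNF genes and of other genes in the 9 windows of 3 Mb of chromosome 19 with at least 9 tested ZNF genes, with bars at medians: in the fifth window the ZNF genes have a median of 0.98 and the others -0.31.

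The HOX clusters, which set position along the body axis, fell in part. Of 31 tested HOX genes 15 (48.4%) were lower and 2 (6.45%) higher, against 33.9% and 32.7% of all genes. By DESeq2's Wald test on the same libraries 14 were lower and 0 higher, and HOXC4 was not called (adjusted p 0.0527). The losses lay in HOXA, with 7 of 9 lower and 0 higher (median -0.91), and HOXB, with 5 of 8 lower and 0 higher (median -0.37). In HOXC 2 of 8 were higher and 1 lower, and in HOXD 0 of 6 were higher and 2 lower. HOXA3 had 5.75 and 6.92 CPM in knockout libraries, against 12.8 and 13.3 CPM in control libraries, HOXA4 had 8.17 and 7.08 CPM in knockout libraries, against 15.6 and 13.5 CPM in control libraries and HOXA7 had 5.20 and 5.84 CPM in knockout libraries, against 10.3 and 10.5 CPM in control libraries. HOXB2 was not called, at 84.9 and 77.3 CPM in knockout cells and 86.2 and 85.3 CPM in control cells, and HOXC4 had 16.8 and 15.5 CPM in knockout libraries, against 13.3 and 12.6 CPM in control libraries. The edgeR call of HOXC4 was lost without control replicate 2 (log2 fold change 0.27, adjusted p 0.0540) and without knockout replicate 1 (0.26, adjusted p 0.0891). The count of 2 HOX genes called higher became 3 without control replicate 1, 0 without control replicate 2 and 1 without either knockout replicate.

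Histone genes split by class, though most of those called higher were at low levels. Replication-independent variants fell: 8 of 9 were lower and 1 higher. The linker histone H1FX had 34.6 and 36.2 CPM in knockout libraries, against 80.4 and 88.9 CPM in control libraries and H3F3B, which encodes H3.3, had 359.7 and 371 CPM in knockout libraries, against 533 and 533 CPM in control libraries. Of the clustered HIST genes, whose mRNA normally lacks a poly(A) tail (poly(A) selection is not settled here), 10 of 72 were tested, 6 were higher and 0 lower. HIST1H2BK had 24.3 and 22.2 CPM in knockout libraries, against 14.2 and 15.5 CPM in control libraries. H2AFJ was the variant that rose, with 23.2 and 20.7 CPM in knockout libraries, against 13.9 and 15.8 CPM in control libraries. Of 19 tested histone genes 10 averaged 5 CPM or more over the libraries, and of these 2 were higher and 8 lower. By DESeq2's Wald test 3 of the 19 were higher and 8 lower. Over all histone genes 7 were called higher, and 4 without control replicate 2 or either knockout replicate.

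Partners of KDM1A moved both ways. Of 21 genes of the CoREST complex and the factors that bring it to genes, 7 were higher and 8 lower, shares close to those of all genes. SNAI2, a SNAIL repressor of epithelial genes, had 110.1 and 107 CPM in knockout libraries, against 48.7 and 50.2 CPM in control libraries. The scaffolds RCOR1 and RCOR3 rose by 0.36 and 0.46 on the log2 scale. HDAC2 had 284 and 276 CPM in knockout libraries, against 314 and 302 CPM in control libraries, and CTBP2, a corepressor, had 46.3 and 44.4 CPM in knockout libraries, against 58.9 and 57.8 CPM in control libraries. HDAC2, at a log2 fold change of -0.14, lost its edgeR call without control replicate 1 (adjusted p 0.0704) and without knockout replicate 2 (adjusted p 0.110). In NuRD, the other complex that holds KDM1A, 5 of 11 genes were lower and 1 was higher, and RBBP7, a histone-binding subunit, had 279.7 and 280.3 CPM in knockout libraries, against 437 and 430.4 CPM in control libraries.

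Other enzymes of histone and DNA methylation moved by under 2-fold. Among 21 JmjC demethylases 8 were higher and 6 lower, and none reached 2-fold; without knockout replicate 2 there were 3 lower. KDM6B, which removes the H3 lysine 27 mark, had 38.0 and 39.4 CPM in knockout libraries, against 18.6 and 21.5 CPM in control libraries; KDM5B, which like KDM1A acts on H3 lysine 4, had 86.9 and 79.8 CPM in knockout libraries, against 53.2 and 46.9 CPM in control libraries; and JMJD1C had 282 and 281 CPM in knockout libraries, against 189 and 178 CPM in control libraries. Of 40 methyltransferase genes 10 were higher and 15 lower, with 6 higher without knockout replicate 2. EZH1 had 42.1 and 40.1 CPM in knockout libraries, against 21.01 and 22.7 CPM in control libraries, SETDB1, which marks H3 lysine 9 at repeats, had 64.9 and 63.8 CPM in knockout libraries, against 44.5 and 40.7 CPM in control libraries, and the H3 lysine 4 enzyme SETD1A had 44.7 and 45.1 CPM in knockout libraries, against 70.2 and 71.2 CPM in control libraries. Of 14 genes of DNA methylation 6 were higher and 1 lower, and DNMT1, the maintenance enzyme, had 499 and 514 CPM in knockout libraries, against 395 and 407 CPM in control libraries; without knockout replicate 1 or 2 the count of those called higher was 3.

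Neuronal genes that REST and CoREST are known to silence did not rise as a group. Of 50 listed, 27 were tested, 9 (33.3%) were higher and 13 (48.1%) lower, with a median of -0.40. At least 2-fold higher were 8 (29.6%) and at least 2-fold lower 5 (18.5%), against 6.0% and 7.57% of all genes. Of the 13 members that averaged 5 CPM or more over the libraries, 3 were higher and 9 lower. DNER, a Notch-binding membrane protein of neurons, had 171 and 173 CPM in knockout libraries, against 79.6 and 85.6 CPM in control libraries, SCG5, a chaperone of neuroendocrine granules, had 10.2 and 10.9 CPM in knockout libraries, against 1.33 and 1.37 CPM in control libraries, and the RNA-binding protein ELAVL2 had 8.81 and 10.4 CPM in knockout libraries, against 4.32 and 3.08 CPM in control libraries. NEFL, the light neurofilament, had 3.61 and 4.26 CPM in knockout libraries, against 27.6 and 25.2 CPM in control libraries, NRXN3, a synaptic adhesion protein, had 4.16 and 4.07 CPM in knockout libraries, against 10.9 and 10.3 CPM in control libraries, and SYT1, a sensor of vesicle release, had 3.89 and 4.49 CPM in knockout libraries, against 9.59 and 9.15 CPM in control libraries. Without the 12 shifted arms 4 of 17 were higher and 10 lower, 3 and 4 at least 2-fold.

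Most germline genes of the kind that tumours switch on had too few counts to be tested. Of 121 listed cancer-testis and germline genes 18 were tested, 12 were lower, 10 of them at least 2-fold, and 3 were higher, with a median of -2.85. MAGEA6, MAGEA12 and MAGEC1 passed the filter on low counts through the control libraries, so these figures describe the members with counts and support nothing, and of the 6 members that averaged 5 CPM or more over the libraries 2 were higher and 3 lower. The antigen MAGEC1 had 0.0397 and 0.131 CPM in knockout libraries, against 8.85 and 10.2 CPM in control libraries. MAGEA6 had no count in knockout libraries and 244 in control libraries, at least 94.2-fold lower against a floor of 3 counts over the group. MAGEA12 had 3 counts over knockout libraries and 351 over control libraries, a ratio of control over knockout of 135 (95% counting interval 46.0 to 660). MAGEA genes are near copies of one another on Xq, and their single counts are uncertain. PRAME had 162 and 168.8 CPM in knockout libraries, against 237 and 237 CPM in control libraries, and TDRD7, a tudor protein of germ granules, rose, with 11.7 and 13.3 CPM in knockout libraries, against 4.73 and 5.61 CPM in control libraries.

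Matrix genes fell more often than they rose. Of 74 tested laminins, matrix glycoproteins and proteoglycans, 48 (64.9%) were lower and 17 (22.97%) higher, and 31 (41.9%) fell at least 2-fold, against 33.9%, 32.7% and 7.57% of all genes; without the 12 shifted arms 29 of 50 were lower and 14 higher. BGN, biglycan, had 1.98 and 1.34 CPM in knockout libraries, against 48.8 and 45.4 CPM in control libraries, and EMILIN1, an elastic fibre protein, had 0.159 and 0.0656 CPM in knockout libraries, against 6.19 and 6.20 CPM in control libraries. IGFBP7, a secreted binder of growth factors, had 1 count over knockout libraries and 665 over control libraries, a ratio of control over knockout of 770 (95% counting interval 138 to 30453). EMILIN1 and IGFBP7 passed the filter on low counts through the control libraries. The count of 31 therefore describes the members with counts and supports nothing. The exceptions were strong: LAMA1, a laminin chain of embryonic basement membrane, had 97.0 and 94.7 CPM in knockout libraries, against 1.37 and 1.54 CPM in control libraries, and SPP1, osteopontin, had 186 and 178 CPM in knockout libraries, against 8.22 and 14.8 CPM in control libraries. Of 22 collagen genes 13 (59.1%) were lower and 5 (22.7%) higher. COL5A1, which starts collagen fibrils, had 1.11 and 1.18 CPM in knockout libraries, against 42.2 and 46.5 CPM in control libraries, and COL18A1, the source of endostatin, had 10.6 and 10.8 CPM in knockout libraries, against 53.9 and 55.6 CPM in control libraries. COL16A1 had 18.1 and 19.1 CPM in knockout libraries, against 6.89 and 7.74 CPM in control libraries, COL27A1 had 59.5 and 61.5 CPM in knockout libraries, against 25.6 and 28.5 CPM in control libraries and COL17A1, of hemidesmosomes, had 24.6 and 24.8 CPM in knockout libraries, against 13.1 and 12.98 CPM in control libraries.

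Enzymes that cut matrix, and their inhibitors, moved in both directions. Of 15 metalloproteinases and TIMPs 8 (53.3%) were higher and 5 (33.3%) lower, against 32.7% and 33.9% of all genes. MMP14, the membrane-bound activator of MMP2, had 561 and 546 CPM in knockout libraries, against 317 and 323 CPM in control libraries. TIMP3, a matrix-bound inhibitor, had 58.7 and 61.2 CPM in knockout libraries, against 341 and 324 CPM in control libraries, and TIMP2, which also takes part in MMP2 activation, had 86.4 and 94.0 CPM in knockout libraries, against 187 and 186 CPM in control libraries. Of 26 ADAM and ADAMTS proteases 15 were lower and 7 higher; ADAMTS6 had 186 and 184 CPM in knockout libraries, against 81.2 and 74.8 CPM in control libraries and ADAMTS12 had 16.1 and 17.1 CPM in knockout libraries, against 38.4 and 34.6 CPM in control libraries. Among inhibitors and coagulation genes SERPINB7 had 494 and 504 CPM in knockout libraries, against 99.0 and 92.9 CPM in control libraries, SERPINA1, the inhibitor of neutrophil elastase, had 24.4 and 24.0 CPM in knockout libraries, against 1.83 and 2.16 CPM in control libraries, and F3, tissue factor, had 60.9 and 55.6 CPM in knockout libraries, against 20.2 and 19.8 CPM in control libraries. Cathepsin K (CTSK) had 3.29 and 3.67 CPM in knockout libraries, against 26.8 and 25.7 CPM in control libraries, and HTRA1, a secreted serine protease, had 0.317 and 0.361 CPM in knockout libraries, against 8.72 and 9.73 CPM in control libraries.

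Genes that build the sugars of surface and matrix proteins also fell more often than they rose. Of 74 glycosyltransferases and sulfotransferases 45 (60.8%) were lower and 15 (20.3%) higher, against 33.9% and 32.7% of all genes. At least 2-fold lower were 20 and higher 5. NDST1, which begins the sulfation of heparan sulfate, had 115 and 123.2 CPM in knockout libraries, against 313 and 318 CPM in control libraries. CHST14, a dermatan sulfotransferase, had 10.2 and 9.87 CPM in knockout libraries, against 38.3 and 35.3 CPM in control libraries, and ST3GAL5, which makes the ganglioside GM3, had 2.38 and 2.20 CPM in knockout libraries, against 6.40 and 7.44 CPM in control libraries. ST6GALNAC5 rose, with 5.79 and 5.77 CPM in knockout libraries, against 0.249 and 0.166 CPM in control libraries, as did ST8SIA4, a polysialic acid synthase, with 7.77 and 6.98 CPM in knockout libraries, against 1.79 and 1.95 CPM in control libraries. Off the 12 shifted arms 32 of 51 were lower and 8 higher.

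Adhesion molecules and actin genes were also lower more often than higher. Of 55 immunoglobulin-like adhesion molecules and tetraspanins 34 were lower and 12 higher, 16 and 3 at least 2-fold. THY1, a marker of stromal cells, had 0.119 and 0.0328 CPM in knockout libraries, against 30.3 and 34.9 CPM in control libraries. VCAM1, a ligand of leukocyte integrins, had 2 counts over knockout libraries and 1646 over control libraries, a ratio of control over knockout of 953 (95% counting interval 263 to 7874). PDCD1LG2, a ligand of PD-1, had 56.4 and 56.6 CPM in knockout libraries, against 26.5 and 26.0 CPM in control libraries, higher in both knockout libraries. Of 36 integrin and focal adhesion genes 20 were lower and 9 higher, with 5 higher without knockout replicate 1. ITGB3 had 4.40 and 4.20 CPM in knockout libraries, against 31.8 and 30.4 CPM in control libraries, while ITGA10, a collagen receptor, had 37.7 and 40.0 CPM in knockout libraries, against 13.8 and 13.6 CPM in control libraries, and the talin TLN2 had 66.6 and 65.4 CPM in knockout libraries, against 19.9 and 22 CPM in control libraries. Of 59 actin and myosin genes 32 were lower and 13 higher, while 10 of 24 keratins and other intermediate filaments were higher and 10 lower. PDLIM1, a stress fibre protein, had 15.3 and 13.6 CPM in knockout libraries, against 105 and 103 CPM in control libraries, and EZR, ezrin, which ties actin to the membrane, had 154 and 155 CPM in knockout libraries, against 323 and 313 CPM in control libraries.

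**Figure D5:**
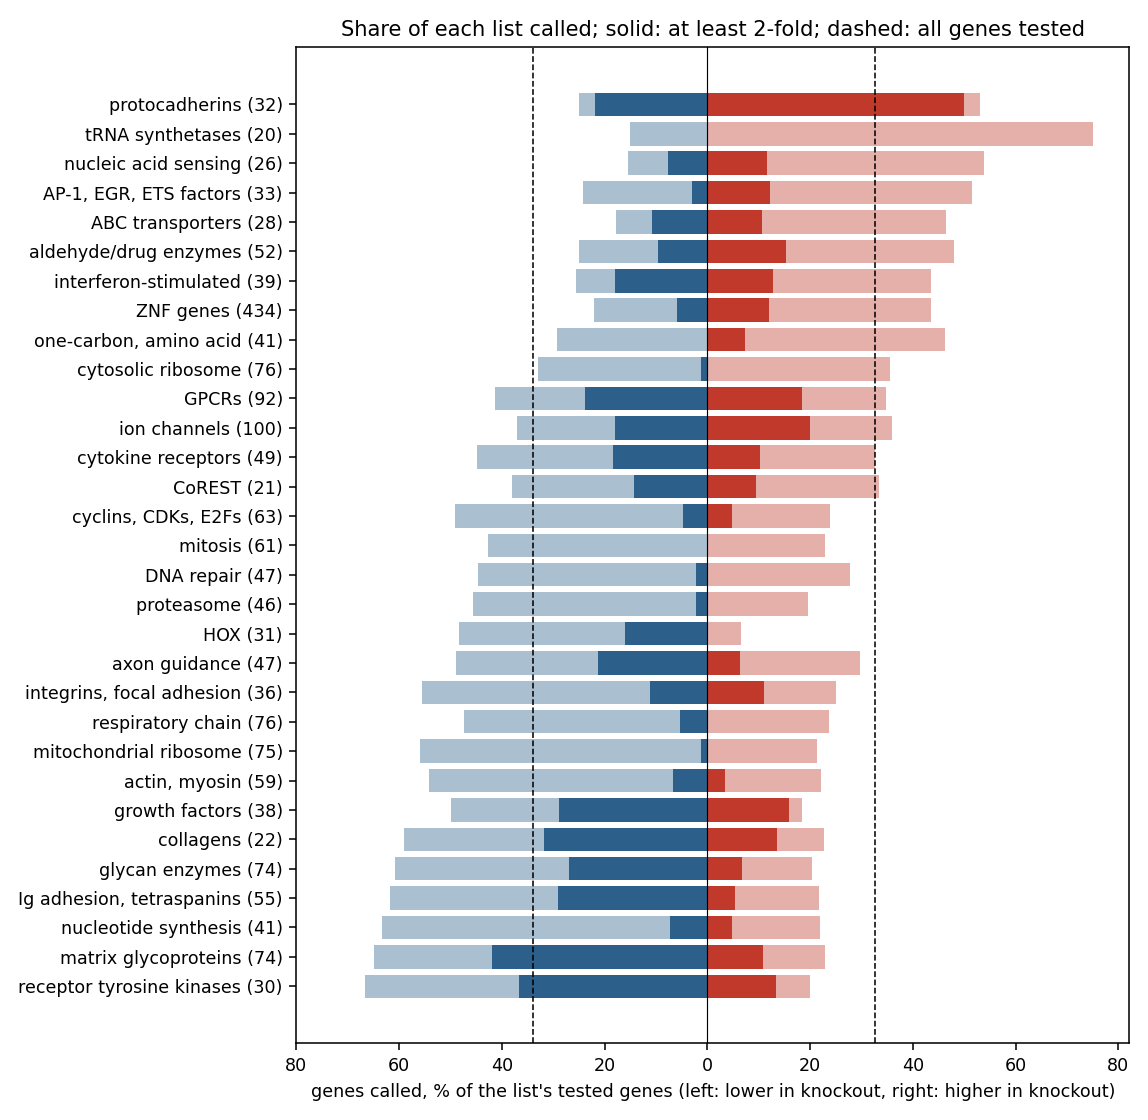
Share of each list's tested genes (number in brackets) called lower in knockout cells, to the left, and higher, to the right, with the solid part at least 2-fold and dashed lines at the shares over all genes tested, 33.9% and 32.7%. Receptor tyrosine kinases, matrix glycoproteins, nucleotide synthesis, adhesion molecules and glycan enzymes reach beyond 60% on the left, and tRNA synthetases reach 75% on the right with no gene at 2-fold.

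Receptor tyrosine kinases, the entry points of growth factor signals, were largely lower. Of 30 tested 20 (66.7%) were lower and 6 (20%) higher, 11 and 4 at least 2-fold, and off the 12 shifted arms 16 of 22 were lower and 2 higher. AXL, the GAS6 receptor, had 486 and 503 CPM in knockout libraries, against 826 and 843 CPM in control libraries, and PDGFRA, the receptor of platelet-derived growth factor, had 12.8 and 12.6 CPM in knockout libraries, against 63.4 and 63.2 CPM in control libraries. PTK7, a pseudokinase of planar polarity, had 1.51 and 1.84 CPM in knockout libraries, against 15.2 and 14.7 CPM in control libraries, and EPHB6 had 0.238 and 0.230 CPM in knockout libraries, against 9.22 and 8.19 CPM in control libraries. KIT, the stem cell factor receptor, had 1 count over knockout libraries and 276 over control libraries, a ratio of control over knockout of 319.5 (95% counting interval 56.9 to 12665). ROS1, an orphan receptor, stood out upward, with 77.7 and 77.4 CPM in knockout libraries, against 3.28 and 3.33 CPM in control libraries, and 2 ephrin receptors rose as well. EPHB1 had 40.1 and 42.0 CPM in knockout libraries, against 7.43 and 7.07 CPM in control libraries, and EPHA4 had 149.6 and 151 CPM in knockout libraries, against 58.8 and 61.8 CPM in control libraries. The ligands leaned the same way: of 38 growth factors 19 (50%) were lower and 7 (18.4%) higher, against 33.9% and 32.7% of all genes. Midkine (MDK) had 10.2 and 9.90 CPM in knockout libraries, against 61.6 and 68.0 CPM in control libraries, FGF5 had 188 and 185 CPM in knockout libraries, against 385 and 355 CPM in control libraries and the neuregulin gene NRG1 had 5.04 and 5.02 CPM in knockout libraries, against 97.5 and 95.3 CPM in control libraries. PGF, placental growth factor, had 31.1 and 34.6 CPM in knockout libraries, against 7.48 and 8.36 CPM in control libraries.

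Intracellular brakes of these pathways were mixed. Of 33 feedback and output genes of the ERK pathway 13 (39.4%) were higher and 13 (39.4%) lower, against 32.7% and 33.9% of all genes. SPRY2 had 119 and 113 CPM in knockout libraries, against 269 and 259 CPM in control libraries and SPRED1 had 102 and 94.8 CPM in knockout libraries, against 174 and 172 CPM in control libraries, both inhibitors of RAS signalling. DUSP10, a phosphatase of stress kinases, had 28.0 and 26.9 CPM in knockout libraries, against 5.90 and 6.99 CPM in control libraries. Among TGF-beta family genes 15 of 37 (40.5%) were higher and 13 (35.1%) lower. Off the 12 shifted arms 6 of 24 were higher and 12 lower. SMAD7, the inhibitory SMAD, had 10.2 and 10 CPM in knockout libraries, against 1.74 and 1.71 CPM in control libraries, and SMAD3, a signal-carrying SMAD, had 159 and 164 CPM in knockout libraries, against 352 and 363 CPM in control libraries. INHBA, the activin A subunit, had 218 and 217 CPM in knockout libraries, against 109.9 and 106 CPM in control libraries, and FST, the activin antagonist, had 43.7 and 36.5 CPM in knockout libraries, against 205 and 201 CPM in control libraries. In the Notch and Hedgehog pathways JAG1, a Notch ligand, had 8.57 and 8.46 CPM in knockout libraries, against 49.7 and 45.7 CPM in control libraries and HES1, a Notch target, had 12.4 and 13.97 CPM in knockout libraries, against 5.27 and 4.62 CPM in control libraries; HHIP, a Hedgehog-binding inhibitor, had 10.3 and 10 CPM in knockout libraries, against 34.5 and 33.8 CPM in control libraries, and NOTCH2 was not called, at 469 and 484 CPM in knockout cells and 449 and 459.9 CPM in control cells.

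Receptors and channels held genes that changed at least 2-fold in both directions, and guidance cues were more often lower. Of 47 semaphorins, ephrins, slits, netrins and their receptors 23 (48.9%) were lower and 14 (29.8%) higher, against 33.9% and 32.7% of all genes. At least 2-fold lower were 10 and higher 3. SEMA6B had 29.2 and 30.6 CPM in knockout libraries, against 1.495 and 1.66 CPM in control libraries, and NRP2, a semaphorin and VEGF co-receptor, had 146 and 144 CPM in knockout libraries, against 59.8 and 58.2 CPM in control libraries, while NTN4 had 7.85 and 8.03 CPM in knockout libraries, against 58.6 and 54.2 CPM in control libraries and SLIT3 had 10.5 and 9.41 CPM in knockout libraries, against 54.3 and 56.6 CPM in control libraries. Of 92 G protein-coupled receptors 32 were higher and 38 lower, 17 (18.5%) and 22 (23.9%) at least 2-fold against 6.0% and 7.57% of all genes. PTGER2, described below, passed the filter on low counts through the control libraries. The 2-fold counts therefore describe members with counts and support nothing. Of the 48 receptors that averaged 5 CPM or more over the libraries 19 were higher and 22 lower. GPR56, an adhesion receptor that binds collagen III, had 30.8 and 33.5 CPM in knockout libraries, against 1.95 and 2.45 CPM in control libraries. LPAR1, a receptor of lysophosphatidic acid, had 0.992 and 0.852 CPM in knockout libraries, against 64.7 and 60.2 CPM in control libraries, and PTGER2, a prostaglandin E2 receptor, had 0.595 and 0.131 CPM in knockout libraries, against 19.2 and 21.4 CPM in control libraries. Of 100 ion channel subunits 36 were higher and 37 lower, 20 and 18 at least 2-fold. CHRNA1 among them passed the filter on low counts through the control libraries, so these 2-fold counts too support nothing. Of the 48 subunits that averaged 5 CPM or more over the libraries 18 were higher and 19 lower. TRPM2, a calcium channel opened by oxidative stress, had 112 and 125 CPM in knockout libraries, against 14.2 and 13.97 CPM in control libraries, and CHRNA1, the muscle acetylcholine receptor, had 0.119 and 0.230 CPM in knockout libraries, against 23.8 and 24.6 CPM in control libraries. Among 196 solute carriers 73 (37.2%) were higher and 65 (33.2%) lower, shares close to those of all genes. The lactate exporter SLC16A3 had 0.873 and 0.984 CPM in knockout libraries, against 34.6 and 36.3 CPM in control libraries. Of 28 ATP-binding cassette genes 13 were higher and 5 lower: ABCC9, a subunit of potassium channels, had 64.7 and 62.1 CPM in knockout libraries, against 5.90 and 5.70 CPM in control libraries, ABCA1, a cholesterol exporter, had 37.2 and 37.1 CPM in knockout libraries, against 12.6 and 11.4 CPM in control libraries, and 2 drug pumps fell. ABCG2 had 3.81 and 3.44 CPM in knockout libraries, against 21.01 and 18.2 CPM in control libraries, and ABCC1, on 16p, had 49.5 and 55.5 CPM in knockout libraries, against 120.4 and 116 CPM in control libraries.

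Homeobox and related factors were lower more often than higher, and AP-1 and ETS factors higher more often than lower. Of 56 homeobox, paired, T-box and GATA factors outside the HOX clusters 25 (44.6%) were lower and 11 (19.6%) higher. Of all genes 33.9% were lower and 32.7% higher. Off the 12 shifted arms 18 of 37 were lower and 3 higher. GATA6 had 6.50 and 6.13 CPM in knockout libraries, against 25.2 and 27.7 CPM in control libraries, and PRRX1, a factor of mesenchyme, had 38.3 and 39.7 CPM in knockout libraries, against 154 and 145 CPM in control libraries. Among SOX and forkhead factors 11 of 32 were lower, close to the 33.9% over all genes, and 7 higher. FOXA2, a factor of endoderm, had 3.85 and 2.89 CPM in knockout libraries, against 45.6 and 46.0 CPM in control libraries, SOX9 had 204 and 194 CPM in knockout libraries, against 143 and 137 CPM in control libraries, and FOXD1 was not called, at 317 and 312 CPM in knockout cells and 294 and 322 CPM in control cells. Of 33 AP-1, EGR and ETS factors 17 were higher and 8 lower, with 5 lower without knockout replicate 1 or 2. FOS had 7.69 and 8.39 CPM in knockout libraries, against 3.24 and 2.87 CPM in control libraries, FOSB had 11.4 and 12.5 CPM in knockout libraries, against 5.48 and 5.66 CPM in control libraries and JUNB had 29.7 and 25.05 CPM in knockout libraries, against 15.6 and 14.97 CPM in control libraries, while FOSL1 was not called, at 576 and 618 CPM in knockout cells and 614 and 605 CPM in control cells. ARNT2, a partner of hypoxia and dioxin factors, had 0.357 and 0.885 CPM in knockout libraries, against 17.03 and 16.6 CPM in control libraries, and BHLHE40, a clock-linked repressor, had 68.8 and 68.7 CPM in knockout libraries, against 30.5 and 31.1 CPM in control libraries. Of 34 nuclear receptors 13 (38.2%) were higher and 12 (35.3%) lower, shares near those of all genes. VDR, the vitamin D receptor, had 19.8 and 21.6 CPM in knockout libraries, against 7.48 and 6.65 CPM in control libraries, and NR2F1 had 4.52 and 5.41 CPM in knockout libraries, against 24.7 and 27.4 CPM in control libraries.

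Genes of innate immunity rose in part. Of 26 genes of nucleic acid sensing and interferon signalling 14 (53.8%) were higher and 4 (15.4%) lower, against 32.7% and 33.9% of all genes. Off the 12 shifted arms 10 of 18 were higher and 3 lower. IFI16, a DNA sensor, had 469 and 448 CPM in knockout libraries, against 334 and 312 CPM in control libraries, CASP4, the caspase that senses lipopolysaccharide, had 127 and 129 CPM in knockout libraries, against 66.9 and 68.7 CPM in control libraries, and TYK2, a kinase of interferon receptors, had 119 and 122 CPM in knockout libraries, against 54.1 and 58.4 CPM in control libraries. AIM2, another DNA sensor, fell, with 2.70 and 3.25 CPM in knockout libraries, against 9.59 and 8.32 CPM in control libraries. Of 39 interferon-stimulated genes 17 (43.6%) were higher and 10 (25.6%) lower, and fewer were called higher without knockout replicate 2. Off the 12 shifted arms 7 of 25 were higher and 9 lower. These counts were close to the shares of all genes off those arms, 27.6% higher and 34.9% lower. SP100, a nuclear body protein encoded on 2q, had 191 and 188 CPM in knockout libraries, against 109 and 100.2 CPM in control libraries, and GBP1, a guanylate-binding protein encoded on 1p, had 12.4 and 10.9 CPM in knockout libraries, against 4.32 and 3.99 CPM in control libraries, while OAS3, which senses double-stranded RNA, had 0.595 and 0.623 CPM in knockout libraries, against 7.27 and 7.57 CPM in control libraries and IFITM2, an antiviral membrane protein, had 17.5 and 20 CPM in knockout libraries, against 54.4 and 54.9 CPM in control libraries. The peptide-trimming enzyme ERAP1 had 45.3 and 49.6 CPM in knockout libraries, against 79.3 and 79.6 CPM in control libraries; 7 of 25 genes of class I presentation were higher and 11 lower, 7 lower without knockout replicate 1. CXCL5, a neutrophil chemokine, had 1290.2 and 1241 CPM in knockout libraries, against 867 and 832 CPM in control libraries, IL24 had 34.4 and 31.0 CPM in knockout libraries, against 1.495 and 1.08 CPM in control libraries and IL1A had 5 and 5.31 CPM in knockout libraries, against 0.498 and 0.457 CPM in control libraries. IL13RA2, a decoy receptor, had 345 and 339 CPM in knockout libraries, against 1.66 and 1.83 CPM in control libraries, and LIFR, the receptor of leukaemia inhibitory factor, had 16.02 and 14.1 CPM in knockout libraries, against 69.5 and 68.4 CPM in control libraries.

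Mitochondrial genes encoded in the nucleus fell by small amounts. Of all genes 33.9% were lower and 32.7% higher. Of 76 respiratory chain and ATP synthase subunits 36 (47.4%) were lower and 18 (23.7%) higher, with a median of -0.11; off the 12 shifted arms 26 of 45 were lower and 4 higher, and over all arms 11 were higher without knockout replicate 2. Of the 4 subunits that fell at least 2-fold, 3 lay on the downward arms: NDUFV2 on 18p had 31.0 and 32.1 CPM in knockout libraries, against 72.9 and 79.0 CPM in control libraries, NDUFS6 on 5p had 31.5 and 30.5 CPM in knockout libraries, against 65.6 and 67.1 CPM in control libraries, and NDUFB10 on 16p had 41.8 and 41.7 CPM in knockout libraries, against 88.1 and 83.8 CPM in control libraries, all subunits of complex I. The other, ATP5E on 20q, was at a low level. UQCRC1, of complex III, on 3p, had 210.0 and 218 CPM in knockout libraries, against 137 and 144 CPM in control libraries. Of 75 mitochondrial ribosomal proteins 42 were lower and 16 higher, with 27 lower without knockout replicate 2 and 9 higher without knockout replicate 1. MRPL36 on 5p had 9.04 and 8.92 CPM in knockout libraries, against 23.5 and 25.2 CPM in control libraries, and MRPS34 on 16p had 62.5 and 56.5 CPM in knockout libraries, against 114 and 117 CPM in control libraries.

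Of the cytosolic ribosome about as many genes were higher as lower over all arms, and more were lower off the shifted arms. Of 76 ribosomal proteins 27 were higher and 25 lower, with a median of -0.0056, and 16 were lower without knockout replicate 2. Off the 12 arms 11 of 52 were higher and 20 lower, with a median of -0.071. RPL11 had 1411 and 1326 CPM in knockout libraries, against 918 and 926 CPM in control libraries and RPL10 had 413 and 442 CPM in knockout libraries, against 274 and 275 CPM in control libraries; RPL22L1, a paralog of RPL22, had 68.5 and 59.7 CPM in knockout libraries, against 168 and 167 CPM in control libraries. The enzymes that charge tRNA rose: 15 of 20 cytosolic tRNA synthetases (75%) were higher and 3 lower, none at least 2-fold, and off the 12 shifted arms 10 of 14 were higher. SARS had 411 and 397 CPM in knockout libraries, against 244 and 245 CPM in control libraries, QARS had 261 and 268 CPM in knockout libraries, against 188 and 191 CPM in control libraries and EPRS had 617 and 588 CPM in knockout libraries, against 454 and 418 CPM in control libraries. TARS, on 5p, fell, with 415 and 382 CPM in knockout libraries, against 533 and 520.0 CPM in control libraries, and so did LARS, with 321 and 310.3 CPM in knockout libraries, against 385 and 366 CPM in control libraries. Among enzymes of serine, one-carbon and amino acid metabolism 19 of 41 were higher and 12 lower. CTH, which makes cysteine, had 24.99 and 25.7 CPM in knockout libraries, against 8.47 and 9.94 CPM in control libraries, and SAT1, which breaks down polyamines, had 52.8 and 49.0 CPM in knockout libraries, against 9.26 and 10.7 CPM in control libraries.

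Nucleotide synthesis and cell division leaned downward. Of 41 genes of purine and pyrimidine supply 26 (63.4%) were lower and 9 (21.95%) higher, with a median of -0.27, and off the 12 shifted arms 21 of 31 were lower. TYMS, thymidylate synthase, encoded on 18p, had 180.1 and 179 CPM in knockout libraries, against 609.8 and 595 CPM in control libraries, and CTPS2, a CTP synthase, had 34.2 and 36.7 CPM in knockout libraries, against 83.3 and 81.1 CPM in control libraries. UPP1, which breaks down uridine, rose, with 235 and 235 CPM in knockout libraries, against 72.2 and 80.3 CPM in control libraries. Of 63 cyclins, kinases, inhibitors and E2F factors 31 were lower and 15 higher. CCND1, cyclin D1, had 699 and 709.9 CPM in knockout libraries, against 1060.0 and 1063 CPM in control libraries, and CDKN1A, the inhibitor p21, had 31.4 and 31.3 CPM in knockout libraries, against 6.52 and 8.53 CPM in control libraries. SKP2, on 5p, had 35.1 and 35.7 CPM in knockout libraries, against 73.0 and 67.3 CPM in control libraries, and TFDP1, on 13q, had 123.1 and 124.03 CPM in knockout libraries, against 249.7 and 256 CPM in control libraries. None of 61 mitotic genes reached 2-fold, while 26 were lower and 14 higher, and 9 were higher without knockout replicate 1. Off the 12 shifted arms 4 of 40 were higher and 16 lower. ASPM had 398 and 372 CPM in knockout libraries, against 279.9 and 257 CPM in control libraries, and BIRC5, survivin, had 99.1 and 94.98 CPM in knockout libraries, against 188 and 195 CPM in control libraries. Of 47 repair genes 21 were lower and 13 higher, with 8 higher without knockout replicate 1. BARD1, the partner of BRCA1, had 40.1 and 37.9 CPM in knockout libraries, against 28.2 and 27.2 CPM in control libraries.

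Heat shock genes were balanced, and proteasome and endoplasmic reticulum genes were more often lower. Of 87 heat shock proteins and cochaperones 28 were higher and 24 lower, with a median of -0.0048, and off the 12 shifted arms 16 of 62 were higher and 18 lower. HSP90AB1 was not called, at 3636 and 3690.0 CPM in knockout cells and 3850.1 and 3849 CPM in control cells. CCT5, a chaperonin subunit on 5p, had 447 and 428 CPM in knockout libraries, against 939 and 939 CPM in control libraries. Of 46 proteasome genes 21 (45.7%) were lower and 9 (19.6%) higher, against 33.9% and 32.7% of all genes. PSMG2, an assembly factor on 18p, had 46.0 and 44.7 CPM in knockout libraries, against 84.9 and 82.5 CPM in control libraries. Of 40 genes of endoplasmic reticulum chaperones and the unfolded protein response 13 (32.5%) were higher and 19 (47.5%) lower, 1 and 2 at least 2-fold. CREB3L1, a membrane-bound factor of collagen-secreting cells, had 5 and 6.72 CPM in knockout libraries, against 57.1 and 52.5 CPM in control libraries, PDIA4 had 329 and 323 CPM in knockout libraries, against 626 and 616 CPM in control libraries and HERPUD1 had 129 and 125 CPM in knockout libraries, against 59.4 and 63.1 CPM in control libraries.

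Among genes of lipids and oxidation, single members stood out rather than groups. GPAM, the first enzyme of triglyceride synthesis, had 309.5 and 308 CPM in knockout libraries, against 82.1 and 74.8 CPM in control libraries, and LPIN1 had 156 and 150.0 CPM in knockout libraries, against 78.6 and 77.9 CPM in control libraries, while its paralog LPIN2, on 18p, had 52.0 and 54.5 CPM in knockout libraries, against 150.2 and 155 CPM in control libraries. FASN, fatty acid synthase, was not called, at 830.5 and 907 CPM in knockout cells and 806 and 860.1 CPM in control cells, but was without control replicate 2 (log2 fold change 0.11, edgeR adjusted p 0.0456). PTGS1, the constitutive cyclooxygenase, had 1.63 and 2.82 CPM in knockout libraries, against 43.1 and 43.3 CPM in control libraries. Of 52 aldehyde dehydrogenases, cytochromes P450 and related enzymes 25 were higher and 13 lower, with 16 higher without knockout replicate 2. Off the 12 shifted arms 14 of 33 were higher and 11 lower, with a median of 0.041. AKR1C3, a steroid and prostaglandin reductase encoded on 10p, had 16.2 and 17.2 CPM in knockout libraries, against 3.86 and 4.95 CPM in control libraries, and CYP27B1, which activates vitamin D, had 15.03 and 14.6 CPM in knockout libraries, against 6.64 and 6.20 CPM in control libraries.

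Epithelial genes need the reading of control replicate 2 given above. Of 19 tested 6 were lower and 4 higher. There were 13 lower without control replicate 1 and 3 lower without any one of the other libraries, and 2 higher without control replicate 1 or either knockout replicate. CLDN4, a tight junction protein, had 0.595 and 0.590 CPM in knockout libraries, against 0.997 and 2.95 CPM in control libraries, EPCAM had 0.516 and 0.590 CPM in knockout libraries, against 0.831 and 2.08 CPM in control libraries and MAL2, of polarised membranes, had 1.19 and 0.984 CPM in knockout libraries, against 0.914 and 3.24 CPM in control libraries; in each the control libraries lay far apart. By edgeR's test all 3 were called lower, and none was called without control replicate 2, when CLDN4 had a log2 fold change of -0.75, EPCAM -0.58 and MAL2 0.24, nor without either knockout replicate. KRT8, the partner of KRT18, had 7.34 and 7.25 CPM in knockout libraries, against 24.4 and 28.6 CPM in control libraries.

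The contrast was repeated in cells that had received LY500307, with libraries that none of the vehicle groups share but from the same 2 cell populations. There 4351 of 13361 genes (32.6%) were higher and 4468 (33.4%) lower in knockout cells by edgeR's test. Of 8639 genes called in vehicle and tested in both, 7348 (85.1%) were called in the same direction under LY500307, 22 in the opposite direction and 1269 were not called. Those 7348 were 85.2% of the 8629 genes called under LY500307. Of 1736 genes changed at least 2-fold in vehicle, 1622 (93.4%) were called in the same direction. Across 12957 genes the 2 sets of log2 fold changes had a Pearson correlation of 0.946, a description over genes that share libraries and are not independent. A test of the difference between the 2 contrasts, over all 8 libraries, called 218 of 13498 genes (1.62%) in edgeR's interaction term. MMP3 had a log2 fold change of 6.21 in vehicle and 5.27 under LY500307 (edgeR adjusted p of the interaction 8.23e-07), MMP2 4.04 and 3.26 (2.95e-08), and FN1 -1.93 and -2.31 (4.66e-05). The interaction count rests on few libraries: it lay between 95 and 262 when 1 library was left out, with 95 and 122 without LY500307 control replicate 2 or 1, 96 without vehicle knockout replicate 2, and 118 and 134 without vehicle control replicate 1 or 2.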

How the data were processed

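RNA of ES2 cells was measured by RNA-seq, and the deposited files hold the authors' whole-number read counts per gene, 1 file per library, with 5 closing lines of unassigned reads that were left out of library sizes and tests. Per the submitters' processing notes, reads were demultiplexed with bcl2fastq, aligned to hg19 with TopHat2 2.0.8b and counted with HTSeq. A pair of preparation protocols appear in the labels, one stranded for mRNA and one for total RNA. Whether counting used strand is not stated there, so genes that overlap on opposite strands are uncertain. The design text speaks of combined reads and duplicates. Libraries of a group were not identical, with a chi-square per degree of freedom of 3.46 in knockout and 3.12 in control vehicle pairs, and were counted as 2 replicates.

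Counts were scaled with TMM and tested with edgeR 4.0.16 in R 4.3.3 (quasi-likelihood, filterByExpr, the 4 vehicle libraries, no covariates). Of 23228 genes listed, 6395 had no count in these libraries and 13030 were tested. Called means an adjusted p under 0.05 over all tested genes. The LY500307 pair was fitted alone, and the interaction over all 8 libraries. DESeq2 1.42.0 and other settings were alternatives. On simulated counts for 12880 genes of the vehicle comparison, 66% of 50 genes changed 1.25-fold, 82% changed 1.5-fold, 96% changed 2-fold and 100% changed 4-fold were called, with 3 false calls. Few genes were changed there, against 66.5% called in the data, and the spread was that of these same duplicates. These rates therefore check the fitting steps and do not give the rates of this contrast. Counting intervals and floors of 3 counts cover counting error only. No column of an unmapped sample was left aside.

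Genes, lists and groups were chosen with earlier results of these data known. Named genes were KDM1A, the 10 largest gains and losses in CPM, and in each list up to 3 called genes with the largest rise and fall at 5 CPM or more without overlap, plus the most abundant member; not all are printed, and a few are not reported here. ANKRD1, ATP5E, CLDN4, EPCAM, MAL2, PCDH7, PCDHA6 and the PCDHB and PCDHG genes described were named outside that rule. Promoters came from RefSeq, and MMP3 has none printed.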

Additional observations from a re-analysis of the deposited data

Results flagged for a closer look

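Of 222 genes named besides KDM1A, 20 had a knockout effect that differed between LY500307 and vehicle by the interaction term of edgeR's fit over all 8 libraries. The differences are the log2 fold change of knockout over control under LY500307 minus that in vehicle. In 12 genes the effect was larger in vehicle and in 8 it was larger under LY500307.

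Among genes higher in knockout cells in vehicle, the difference was -0.93 for MMP3, -0.77 for MMP2, -0.51 for SERINC2, -0.29 for SERPINB2, -1.30 for SEMA6B, -1.005 for IL24, -0.75 for PGF, -0.75 for GPR56, -0.67 for ABCA1 and -0.42 for KRT7. Each of these genes thus had a lower knockout effect under LY500307. Among genes lower in knockout cells, the difference was -0.37 for FN1, -0.53 for COL1A1, -0.43 for PLAT, -0.28 for CPA4, -0.22 for CTGF, -0.44 for TIMP3, -0.66 for KRT8 and -0.32 for KRT18, where the fall was larger under LY500307. For FST it was 0.52 and for RPL22L1 0.89, where the fall was smaller.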

How the results depend on the processing

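The vehicle counts of 4257 genes higher and 4414 lower became 2479 and 2744 when edgeR's glmTreat asked for more than 1.2-fold, and those under LY500307 became 2563 and 2860. With a mean of at least 5 CPM, 342 genes rose and 429 fell at least 2-fold. Library totals in place of TMM gave 4631 higher and 4034 lower, with a median shift of 0.035. Leaving out 1 library gave between 3331 and 3930 higher and between 3523 and 4128 lower. The interaction count of 218 became 350 without a filter on low counts, 18 with glmTreat and 643 with the replicate block, and lay between 95 and 262 with 1 library left out. The cause of these changes was not tested. The labels do not say that replicate numbers pair libraries; same-numbered libraries had a correlation of deviations of 0.18 in vehicle and 0.095 under LY500307. With the replicate block 4462 genes were higher and 4618 lower in vehicle. KDM1A stayed lower in every setting, between -1.47 and -1.53. Of 2854 single-gene results, 2818 kept direction and call and 23 lost the call. The 5 that changed sign were near 0 or rested on 1 library: FOSL1 with library totals (0.0099), and with 1 library left out FASN (between -0.000179 and 0.13), FOSL1 (between -0.077 and 0.024), FOXD1 (between -0.033 and 0.098) and MAL2 (between -1.58 and 0.24). Of 1924 list counts, 1769 stayed within 1.5 times. Leaving out the 12 arms was added after the data were seen. With 2 libraries a group, low genes are the least certain.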
